A study of Mus musculus with 6 samples.

Results

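The T-box genes described here are Tbx1, Tbx2, Tbx3, Tbx5, Tbx18 and Tbx20, 6 transcription factor genes of the developing heart, outflow tract and vessel wall, out of 19938 genes compared. They were chosen as named T-box genes, and each was read through the probe set that carries its symbol alone and has the highest mean over the arrays. Expression was measured in the ascending aorta and the descending aorta of mouse embryos, with 3 arrays for each segment. All 6 samples were untreated, wild-type and of the C57BL/6 strain, and the embryos were 13.5 days postcoitum, so the groups share everything the labels name except the segment. The labels speak of biological replicates without giving an embryo, litter or pool for any array, so a p-value here measures spread between samples that may be partly technical. Values are log2 expression after the authors' RMA processing, a method that subtracts background, equalises the arrays and summarises the probes of each probe set. Differences are ascending minus descending on that log2 scale, on which 1 unit is a doubling.

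T-box proteins bind DNA through a shared domain and switch genes on or off according to their partners. In the mouse heart Tbx5 and Tbx20 work with Gata4 and Nkx2-5 on genes of the beating chambers, while Tbx2 and Tbx3 repress those genes in the conduction tissue and atrioventricular canal. Tbx1 acts in pharyngeal mesoderm and the second heart field, which supplies the outflow tract and the base of the great arteries. Tbx18 marks epicardium, the venous pole and mural cells of vessels.

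The 3 ascending arrays did not form 1 group. Across genes, the array labelled ascending replicate 3 had a mean Pearson correlation of 0.988 with its fellow ascending arrays and 0.996 with descending ones (genes are not independent replicates). It was not the only array that stood apart. The array weights of limma, lower for more variable arrays, were 0.567 for ascending replicate 2, 0.577 for descending replicate 1 and 0.628 for ascending replicate 3. The other arrays had weights from 1.49 to 1.82. Smooth muscle actin Acta2, 1 of 7 smooth muscle markers read here, lay between 13.6 and 13.7 on the ascending and between 13.7 and 13.8 on the descending arrays. Other smooth muscle markers, Myh11 and Mylk among them, differed more and are given below. Over all 6 arrays limma called 0 of 19938 genes at an adjusted p of 0.05, that is 0% of those tested, while 1852 genes (9.29%) had an unadjusted p under 0.05. Without ascending replicate 3 limma called 933 genes, or 4.68%, of which 412 were higher (2.07%) and 521 lower (2.61%) in ascending aorta. That array was left out because of its values, so p-values and SEs from the remaining 5 arrays are likely too small, and the results of the T-box genes are given with and without it.

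On ascending replicates 1 and 2, Tbx20 lay above and Tbx1 below all descending arrays, as 15.6% and 18.9% of all genes did. Tbx20 was 7.18-fold higher on those arrays, and Tbx1 was 1.85-fold lower. Tbx2, Tbx3, Tbx5 and Tbx18 did not pass in either fit, and their levels on those 2 arrays did not both lie on 1 side of the descending range. Over all 6 arrays 0 of the 6 members passed, against 0% of all genes, and 1 of 6, Tbx20, had an unadjusted p under 0.05. Without ascending replicate 3, 2 of the 6 passed, 1 in each direction, against 4.68% of all genes. With all arrays, 0 of the 6 members had segments that did not overlap, against 14.8% of all genes. For 2 of 6 members both ascending replicates 1 and 2 fell outside the descending range on the same side, against 34.5% of all genes (15.6% above and 18.9% below).

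**Figure D1:**
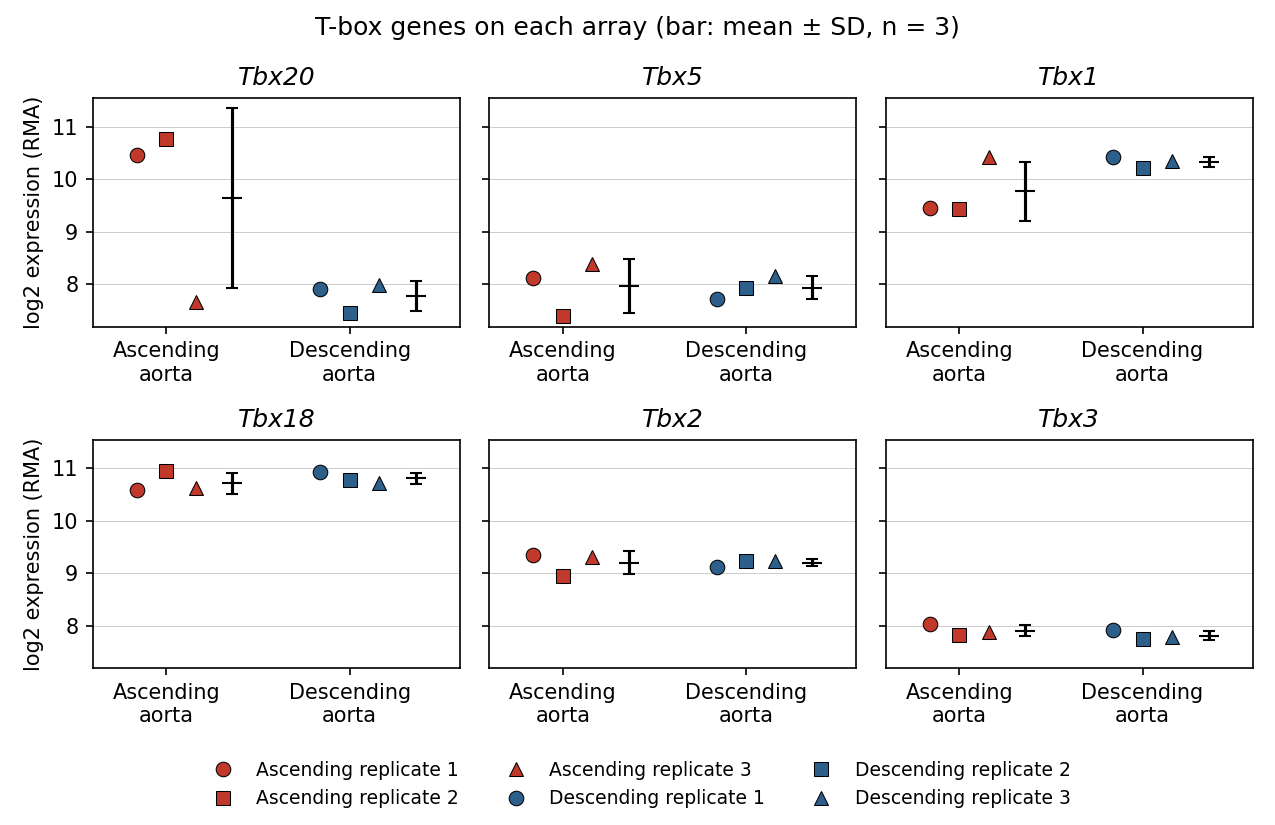
log2 expression (RMA) of the 6 T-box genes on each array, ascending aorta left and descending aorta right in each panel, with the marker shape giving the replicate number and the black bar the mean ± SD (n = 3). Tbx20 lies above 10 and Tbx1 below 9.5 on ascending replicates 1 and 2 only, while ascending replicate 3 lies among the descending arrays for both genes.

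Tbx20 (probe set 10591853), a T-box factor of the embryonic heart that is needed for growth of the heart tube, had log2 levels of 10.47, 10.77 and 7.66 on ascending replicates 1, 2 and 3. Its levels on descending replicates 1, 2 and 3 were 7.91, 7.45 and 7.98. Ascending replicates 1 and 2 were therefore high, and ascending replicate 3 lay inside the descending range. The mean was 9.64 ± 1.71 in ascending and 7.78 ± 0.29 in descending aorta (SD, n = 3 each), a difference of 1.86 ± 0.74 (SE) with a 95% confidence interval of 0.14 to 3.57 (limma adjusted p = 0.53). Without ascending replicate 3 Tbx20 was higher by 2.84 ± 0.17 (SE), with an interval of 2.44 to 3.24 (limma adjusted p = 0.000247). Under the other 13 alternatives its adjusted p lay between 0.265 and 0.841. The ascending arrays spanned 3.11 among themselves, more than the 2.84 by which replicates 1 and 2 stood above the descending mean.

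Tbx1 (probe set 10438347), the T-box factor of the pharyngeal arches and outflow tract, had log2 levels of 9.45, 9.43 and 10.42 on ascending replicates 1, 2 and 3. Its levels on descending replicates 1, 2 and 3 were 10.42, 10.22 and 10.34. Ascending replicates 1 and 2 were low and nearly equal, and ascending replicate 3 again lay inside the descending range. The mean was 9.77 ± 0.56 in ascending and 10.33 ± 0.10 in descending aorta (SD, n = 3 each), a difference of -0.56 ± 0.25 (SE) with an interval of -1.15 to 0.03 (limma adjusted p = 0.538). Without ascending replicate 3 Tbx1 fell by 0.89 ± 0.098 (SE), with an interval of -1.11 to -0.66 (limma adjusted p = 0.00271). Under the other 13 alternatives its adjusted p lay between 0.275 and 0.841. Set against the descending mean, ascending replicate 3 stood at -0.11 for Tbx20 and at 0.09 for Tbx1.

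The promoter windows of these 2 genes are printed because they are the members that passed without ascending replicate 3. Each window holds 300 bases, 250 before and 50 after a transcription start, from RefSeq on GRCm38.p6, written 5′ to 3′ along the gene, with the GC box GGGCGG or its reverse complement in capitals. The Tbx20 window is chr9:24774254-24774553 on the minus strand. Tbx1 has a window at chr16:18588850-18589149 (start A) and another at chr16:18590622-18590921 (start B), both on the minus strand.
Tbx20: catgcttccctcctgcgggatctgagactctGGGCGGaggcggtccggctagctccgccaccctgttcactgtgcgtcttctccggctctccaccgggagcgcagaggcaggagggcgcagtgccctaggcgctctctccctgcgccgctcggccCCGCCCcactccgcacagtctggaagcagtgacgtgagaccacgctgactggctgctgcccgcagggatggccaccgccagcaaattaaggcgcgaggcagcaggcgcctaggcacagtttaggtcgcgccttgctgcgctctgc
Tbx1 start A: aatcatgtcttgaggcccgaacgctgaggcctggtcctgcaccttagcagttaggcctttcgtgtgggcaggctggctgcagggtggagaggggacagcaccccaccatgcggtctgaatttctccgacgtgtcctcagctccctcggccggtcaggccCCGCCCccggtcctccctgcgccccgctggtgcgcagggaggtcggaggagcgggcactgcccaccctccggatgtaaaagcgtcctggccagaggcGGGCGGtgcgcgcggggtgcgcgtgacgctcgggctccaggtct
Tbx1 start B: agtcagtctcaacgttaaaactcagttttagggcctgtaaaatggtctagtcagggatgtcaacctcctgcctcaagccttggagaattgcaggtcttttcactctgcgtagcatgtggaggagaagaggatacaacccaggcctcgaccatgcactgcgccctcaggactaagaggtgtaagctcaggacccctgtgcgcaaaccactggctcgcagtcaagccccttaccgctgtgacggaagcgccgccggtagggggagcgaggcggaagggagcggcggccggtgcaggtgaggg
The windows of Tbx20 and of Tbx1 start A were alike in composition, with 68.3% and 69% G or C and 26 CpG dinucleotides each, against medians of 52.7% and 7 over all 32851 windows. Tbx1 start B had 58.3% and 16. GC boxes began 219 and 95 bases before the start of Tbx20, and 91 bases before and 6 bases after start A of Tbx1. A GC box occurs in 35.7% of all windows. The GATA motif AGATAA (in 11.2% of windows), the T-box motif GGTGTGA (3.98%) and the forkhead motif TGTTTAC (3.65%), searched on both strands, were not in these windows, nor in that of Tbx18. The GC box was thus the only motif of the 4 that occurred, in the windows of Tbx20 and of Tbx1 start A. Of the 6 members, 3 had a window in the table, namely Tbx1, Tbx18 and Tbx20.

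Tbx5 (probe set 10525030), an activator of chamber myocardium that is also required in forelimb buds, varied most among the members that did not pass in either fit. It had log2 levels of 8.12, 7.38 and 8.39 on ascending replicates 1, 2 and 3, and 7.71, 7.93 and 8.16 on descending replicates 1, 2 and 3. The ascending arrays held both the lowest and the highest value. The means were 7.96 ± 0.52 in ascending and 7.93 ± 0.22 in descending aorta (SD, n = 3 each), a difference of 0.03 with an interval of -0.55 to 0.61 (limma adjusted p = 0.975). The direction was not stable, since the difference was -0.18 ± 0.22 (SE) without ascending replicate 3 and 0.32 without ascending replicate 2. A change of 1.53-fold upward, the upper bound for Tbx5, is therefore within what these arrays allow.

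The repressor genes Tbx2 and Tbx3 each varied little over the arrays. Tbx2 (probe set 10379936) had log2 levels of 9.34, 8.94 and 9.30 on the ascending arrays and 9.13, 9.23 and 9.24 on the descending arrays, in replicate order. Ascending replicate 2 gave the lowest Tbx2 level, as it did for Tbx5, and the groups overlapped. The Tbx2 difference was -0.0034 with an interval of -0.28 to 0.27 (limma adjusted p = 0.994), and its sign turned under several settings, for example to 0.0034 after median-centring. Tbx3 (probe set 10525016) had log2 levels of 8.02, 7.82 and 7.87 on the ascending arrays and 7.92, 7.74 and 7.78 on the descending arrays. Its whole range over 6 arrays was 0.28, with a difference of 0.09 and an interval of -0.11 to 0.30 (limma adjusted p = 0.736). Over all 6 arrays the upper bounds correspond to 1.21-fold for Tbx2 and 1.23-fold for Tbx3, and larger increases lie outside those 6-array intervals. Without ascending replicate 3 the Tbx2 difference was -0.06 with an interval of -0.35 to 0.24. That of Tbx3 was 0.11 with an interval of -0.13 to 0.36, so its upper bound was higher without that array.

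Tbx18 (probe set 10595560), a marker of epicardium and of vascular mural cells, had log2 levels of 10.58, 10.94 and 10.62 on the ascending arrays and 10.93, 10.78 and 10.73 on the descending arrays. The 2 highest values came from ascending replicate 2 and descending replicate 1, 1 from each segment. The difference was -0.10 with an interval of -0.37 to 0.17 (limma adjusted p = 0.792), and -0.05 without ascending replicate 3. On ascending replicates 1 and 2, where Tbx20 was high, Tbx18 thus lay on both sides of its descending range.

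**Figure D2:**
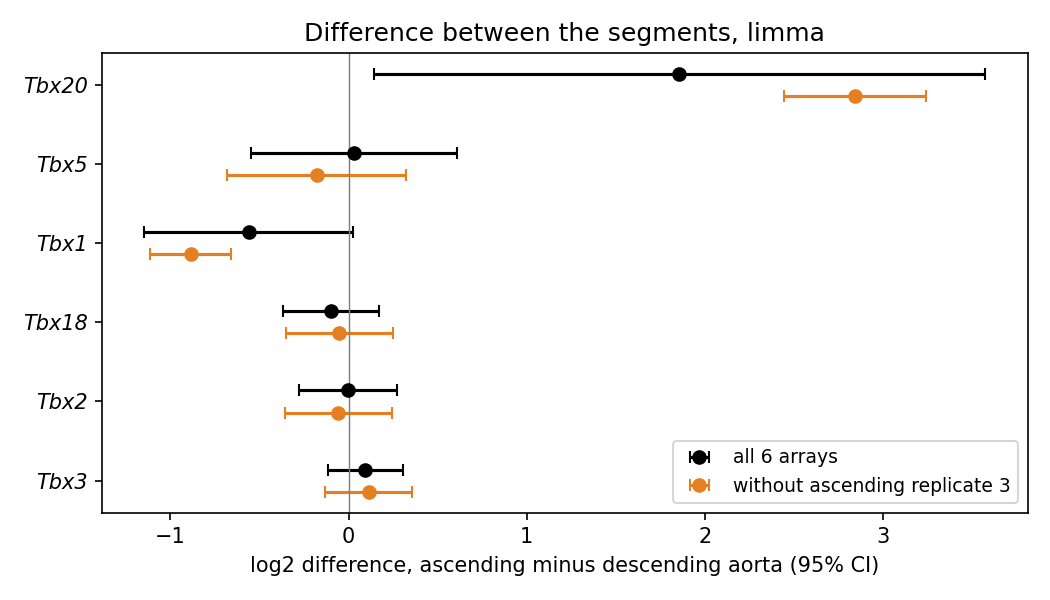
Difference in log2 expression, ascending minus descending aorta, for each T-box gene with its 95% confidence interval from limma, for all 6 arrays (black) and without ascending replicate 3 (orange). Only Tbx20 and Tbx1 have intervals clear of 0 without that array, at 2.44 to 3.24 and -1.11 to -0.66, and the other 4 genes have intervals that include 0 in both fits.

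Of the 9 other T-box genes read on the array, 0 passed in either fit, against 0% and 4.68% of all genes, and their median difference was -0.04 (-0.06 without ascending replicate 3), beside -0.02 over all genes in both fits. Mga, a large protein that carries both a T-box and a basic helix-loop-helix domain, had the smallest p, with log2 levels of 9.49, 10.13 and 9.74 on the ascending arrays and 10.17, 10.07 and 9.91 on the descending arrays. Its difference was -0.26 ± 0.16 (SE), and the groups overlapped. Tbx6, a factor of paraxial mesoderm, differed by -0.09, Tbr1, a factor of forebrain neurons, by 0.09, and Tbx15 by 0.10. Their ascending means were 6.92, 6.38 and 6.54 in that order, under the lowest array median of 7.14. Over the 9 genes the mean level per array ran from 6.71 to 6.76 in ascending and from 6.77 to 6.79 in descending aorta. Differences of such dim genes say little about expression in either segment. T and Tbx10 were not analysed here.

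In the RefSeq gene order Tbx2 stands next to Tbx4, and Tbx3 next to Tbx5, as protein-coding neighbours. Tbx4, a factor of hindlimb and lung mesenchyme, had log2 levels of 7.41, 7.51 and 7.90 on the ascending arrays and 7.41, 7.71 and 7.997 on the descending arrays, so its low values lay in both segments. Its difference was -0.10 ± 0.18 (SE), next to -0.0034 for Tbx2. The measured neighbours of Tbx20, Herpud2 and Cypt4, differed by -0.13 ± 0.09 and -0.05 ± 0.08 (SE), and Gnb1l beside Tbx1 by -0.15 ± 0.13. None of these neighbours passed without ascending replicate 3. Nt5e beside Tbx18, the ectoenzyme that makes extracellular adenosine, was singled out after its values were seen. It had log2 levels of 8.30, 8.29 and 6.51 on the ascending arrays and 6.91, 6.87 and 6.97 on the descending arrays, a difference of 0.79 ± 0.44 (SE) over all arrays. Nt5e rose by 1.38 ± 0.09 (SE) without ascending replicate 3 (limma adjusted p = 0.000298).

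Several factors that act with T-box proteins in the heart were high on the same arrays as Tbx20. Over all 6 arrays 0 of 15 passed, against 0% of all genes. Without ascending replicate 3, 6 of 15 rose and 0 fell, against 2.07% and 2.61% of all genes: Gata4, Gata5, Gata6, Hand1, Hand2 and Isl1. The list median was 0.22 over all arrays and 0.29 without that array, beside -0.02 over all genes. Gata4, a zinc-finger partner of Tbx5 and Tbx20, had log2 levels of 10.28, 10.57 and 8.89 on the ascending arrays and 8.53, 8.62 and 8.66 on the descending arrays. Here ascending replicate 3 lay above the descending range, and the segments did not overlap, as for 14.8% of all genes. The difference was 1.31 ± 0.39 (SE) over all arrays and 1.82 ± 0.11 (SE) without ascending replicate 3. Hand2, a basic helix-loop-helix factor of the heart and arches, differed by 1.24 ± 0.46 over all arrays and by 1.83 ± 0.19 (SE) without it.

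Gata5, a factor of endocardium and early heart mesoderm, rose by 2.77 ± 0.28 (SE) without ascending replicate 3. Isl1, which marks the second heart field, rose by 1.45 ± 0.28, Hand1 by 1.04 ± 0.19 and Gata6 by 0.57 ± 0.095 (SE) in the same fit. Over all 6 arrays these differences were smaller by more than 1.5 times and did not pass, at 1.78 for Gata5 (interval -0.0072 to 3.58), 0.91 for Isl1, 0.58 for Hand1 and 0.32 for Gata6. Nkx2-5, the homeobox partner of Tbx5 and Tbx20 in heart muscle, did not share this, with log2 levels of 8.56, 8.29 and 8.36 on the ascending arrays and 8.40, 8.39 and 8.27 on the descending arrays. Its difference was 0.04 with an interval of -0.18 to 0.26. Smarcd3, a chromatin remodelling subunit that works with Tbx5, differed by 0.30 ± 0.10 (SE), and Mef2c, a MADS-box factor of muscle, by -0.40 ± 0.12. For both of these genes the 3 ascending arrays lay entirely on 1 side of the descending arrays, as 14.8% of all genes did, and neither passed in either fit.

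Markers of other cell types were read on the same arrays. For mesothelium and epicardium, the cell layers covering the heart and body cavities, the mean log2 level over 8 markers was 10.03, 10.08 and 8.86 on ascending replicates 1, 2 and 3, and 8.42, 8.51 and 8.76 on the descending arrays. All 8 had a higher mean in ascending aorta, with a median difference of 1.05 beside -0.02 over all genes. Without ascending replicate 3, 6 of 8 rose, against 2.07% of all genes. For heart muscle the mean over 10 markers was 8.38, 8.70 and 8.06 on the ascending arrays and 8.02, 7.85 and 8.23 on the descending arrays. All 10 had a higher ascending mean, some by little, as Myh6 at 0.05 and Ryr2 at 0.08. The median difference was 0.20, beside -0.02 over all genes. Set against each gene's descending mean, the median over the 10 was 0.18, 0.38 and -0.01 on the ascending arrays. On descending replicate 3 it was 0.16, close to ascending replicate 1. Only 1 of 10, the troponin gene Tnnt2, rose without ascending replicate 3, against 2.07% of all genes. Tnnt2 had log2 levels of 10.78, 11.49 and 8.86 in ascending and 8.90, 8.74 and 9.06 in descending aorta, a difference of 1.47 ± 0.58 over all arrays and 2.23 ± 0.20 (SE) without ascending replicate 3. The atrial myosin light chain gene Myl7 had its highest level, 9.93, on ascending replicate 3. In bulk tissue fewer cells of a type and less RNA per cell cannot be told apart, and the part of these cell types in the Tbx20 and Tbx1 differences was not tested.

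**Figure D3:**
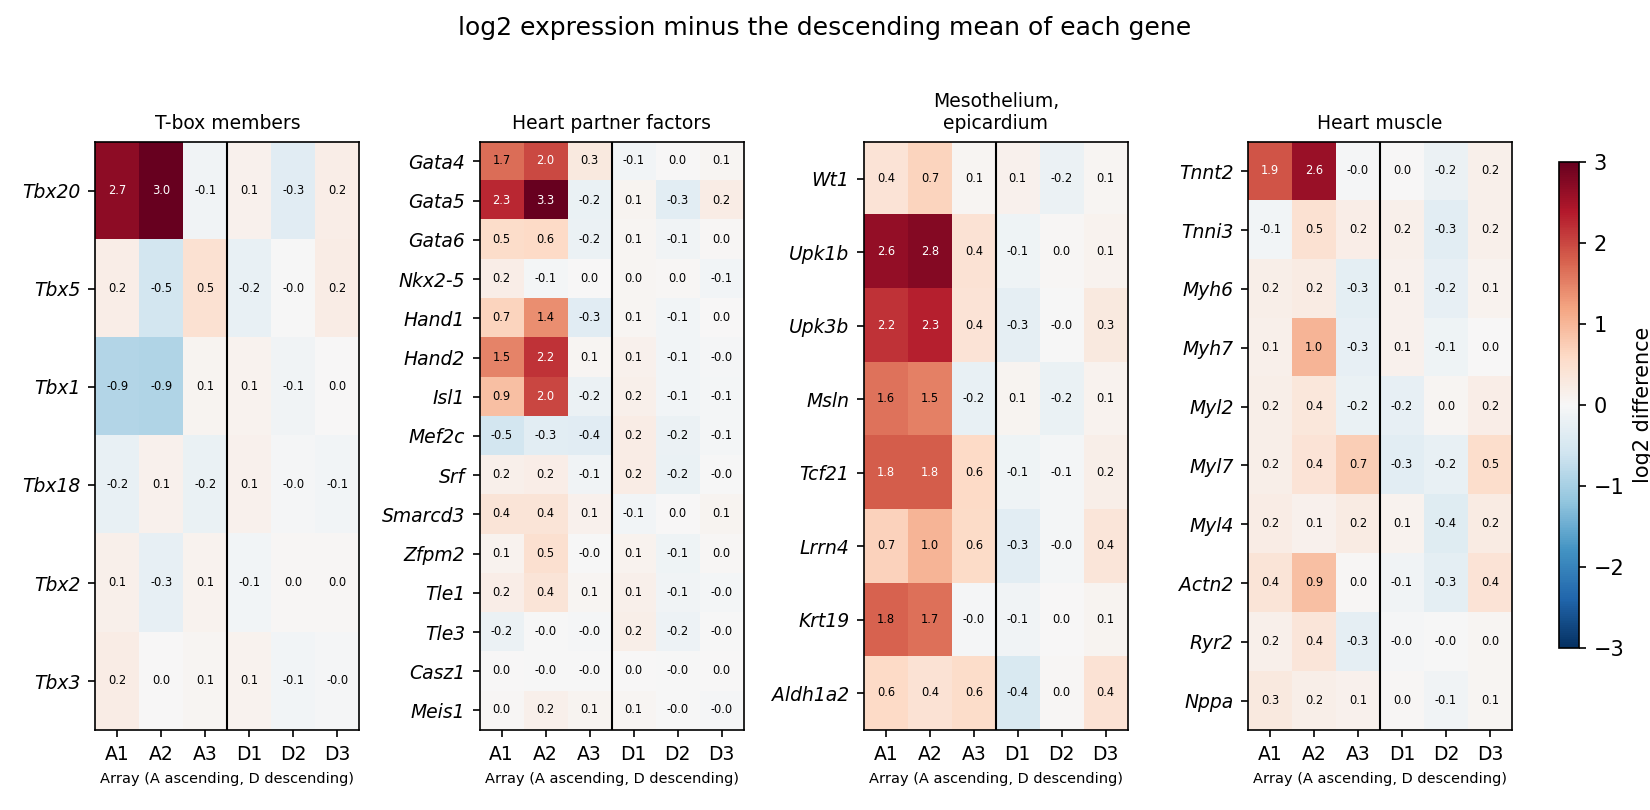
log2 expression minus the descending mean of each gene on ascending arrays A1 to A3 and descending arrays D1 to D3, for the T-box genes, their partner factors and markers of mesothelium with epicardium and of heart muscle. Tbx20, Gata5, Gata4, Hand2, Upk1b and Tnnt2 are high on A1 and A2, Tbx1 is low there, and A3 resembles the descending arrays for Tbx20 and Tbx1.

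The mean log2 level over 6 endothelial markers was 10.57, 10.71 and 10.92 on the ascending arrays and 11.19, 10.98 and 11.01 on the descending arrays, with a lower ascending mean in all 6. Their median difference was -0.27, beside -0.02 over all genes. Of these 6, Cdh5 and Kdr (2 of 6) fell without ascending replicate 3, against 2.61% of all genes. Pharyngeal pouch markers, relevant to Tbx1, had a mean over 4 genes of 6.76, 6.22 and 6.52 on the ascending arrays. It was 6.66, 6.48 and 6.53 on the descending arrays, and 0 passed in either fit, against 0% and 4.68% of all genes. This mean includes the dim genes Pth and Foxn1, with ascending means of 3.85 and 6.42, under the lowest array median of 7.14. Pax1, the brightest, lay below all descending arrays on ascending replicates 1 and 2, as did 18.9% of all genes. It was the only 1 of the 4 with both of those arrays beyond the descending range. Pax1 differed by -0.46 ± 0.15 (SE) without ascending replicate 3 (limma adjusted p = 0.156), and 1 of 4, Foxn1, was higher in that fit. Airway epithelium markers, relevant to Tbx4 and Tbx5 in lung mesenchyme, had a mean over 7 genes of 6.75, 6.46 and 6.55 on the ascending arrays. It was 6.51, 6.62 and 6.54 on the descending arrays, and 0 passed in either fit, against 0% and 4.68% of all genes. Markers of crest neurons and glia (3 measured of 6 listed) passed in 0 cases in either fit, against 0% and 4.68% of all genes. All 3 had a lower ascending mean, with a median difference of -0.35 beside -0.02 over all genes, but the segments overlapped for each of these markers. Their mean level per array ran from 8.26 to 8.51 in ascending and from 8.54 to 8.97 in descending aorta. The mean log2 level over 7 smooth muscle markers ran from 10.6 to 11.1 across ascending and from 10.8 to 10.9 across descending arrays. Without ascending replicate 3, 1 of 7, Lmod1, rose, against 2.07% of all genes. Over all arrays 4 of 7 had a higher and 3 a lower ascending mean. Myh11 and Mylk (2 of 7) had ascending values all below the descending values, against 14.8% of all genes with segments that did not overlap. They differed by -0.53 ± 0.23 and -0.27 ± 0.10 (SE) and did not pass in either fit. Whether these cell types account for any T-box value was not tested.

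Genes reported elsewhere as activated by Tbx5 or Tbx20 included none that passed as higher in ascending aorta. Of 10 measured, 0 passed over all arrays, and without ascending replicate 3, 0 rose and 2 fell, Gja5 and Kcnj2, against 2.07% and 2.61% of all genes. Gja5, a gap junction connexin of atrial muscle and arterial endothelium, had log2 levels of 9.65, 9.42 and 9.99 on the ascending arrays and 10.12, 10.20 and 10.13 on the descending arrays. All ascending values lay below all descending values, as 14.8% of genes had segments that did not overlap, and the difference was -0.46 ± 0.14 (SE). Without ascending replicate 3 Gja5 fell by 0.61 ± 0.10 (SE, limma adjusted p = 0.0165). Nppa, the atrial natriuretic peptide gene and a classic chamber target, differed by 0.20 ± 0.08 (SE), with log2 levels of 6.98, 6.87 and 6.82 on the ascending arrays and 6.74, 6.59 and 6.75 on the descending arrays. All of these levels lay under the lowest array median of 7.14, so this difference says little about expression in either segment. Kcnj2, an inward rectifier potassium channel gene, fell by 0.74 ± 0.15 (SE) without ascending replicate 3, with a difference of -0.43 ± 0.26 over all arrays, and Id2 differed by -0.21 over all arrays.

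Genes that Tbx2 or Tbx3 repress in the heart include Gja5 and Nppa as well. Of 7 measured, 0 passed over all arrays and 1, Gja5, fell without ascending replicate 3, against 2.61% of all genes, with a list median of -0.03 over all arrays. Gja1, the most widespread gap junction connexin, had log2 levels of 9.92, 9.67 and 10.06 on the ascending arrays and 10.11, 10.40 and 10.23 on the descending arrays. The segments did not overlap, as for 14.8% of all genes, and the difference was -0.36 ± 0.12 (SE). Gja1 did not pass in either fit (limma adjusted p = 0.53 over all arrays and 0.0936 without ascending replicate 3). Mycn, a growth-promoting factor, differed by 0.12.

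Genes downstream of Tbx1 in the arches and outflow tract passed in 0 of 10 cases in either fit, against 0% and 4.68% of all genes, with a median of -0.10 over all arrays and -0.20 without ascending replicate 3. Mef2c, described above, had the smallest unadjusted p of this list. It differed by -0.40 ± 0.12 (SE), with segments that did not overlap, as for 14.8% of all genes. Slit2, a guidance ligand, differed by -0.22 ± 0.10, Gbx2, a homeobox factor of the arches, by -0.14 ± 0.07, and Wnt5a, a ligand of planar polarity signalling, by 0.25 ± 0.14 (SE). Gbx2 was dim, with segment means of 6.84 and 6.98 under the lowest array median of 7.14. Ripply3, which encodes a repressor that binds Tbx1, had log2 levels of 7.22, 7.12 and 7.83 on the ascending arrays and 7.61, 7.48 and 7.64 on the descending arrays. It was picked for this after its values were seen, since its low arrays are the same 2 as for Tbx1, and it did not pass (-0.40 ± 0.10 (SE) without ascending replicate 3, limma adjusted p = 0.0622). On those 2 arrays 18.9% of all genes lay below all descending arrays.

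Of 10 genes acting upstream of T-box genes, 0 passed over all arrays and 1, Chrd, passed without ascending replicate 3, against 4.68% of all genes. Bmp4, a ligand of the BMP pathway, which induces Tbx2 in the heart, had log2 levels of 10.89, 11.12 and 10.82 on the ascending arrays and 10.48, 10.24 and 10.77 on the descending arrays. The segments did not overlap, as for 14.8% of all genes. The Bmp4 difference was 0.45 ± 0.15 (SE) over all arrays, and it did not pass in either fit. Chrd, the BMP antagonist chordin, fell by 0.50 ± 0.10 (SE) without ascending replicate 3, with a difference of -0.34 ± 0.15 over all arrays. Aldh1a2, which makes retinoic acid, differed by 0.52 ± 0.20 (SE), and the forkhead genes Foxc1 and Foxc2, which act upstream of Tbx1, differed by 0.11 and 0.13. Of 6 genes linked to Tbx18, 1 passed without ascending replicate 3, against 4.68% of all genes. It was Tcf21, an epicardial and mesenchymal factor, which rose by 1.81 ± 0.11 (SE), with a difference of 1.41 ± 0.31 over all arrays. Wt1, its epicardial companion, differed by 0.38 ± 0.16, Dll1, a Notch ligand of somites, by -0.28 ± 0.10 and Uncx, a homeobox factor of sclerotome, by -0.10 ± 0.09 (SE) over all arrays.

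Likeness of pattern was measured over the 6 arrays as the root mean square difference between log2 values centred on each gene's mean. Predicted genes, unnamed transcripts and small RNA genes were left out of this search. The genes most like Tbx20 were Gata5 (0.22), Dsc2 (0.23), a desmosomal cadherin, and Popdc2 (0.24), a membrane protein of striated muscle. Those most like Tbx5, which spanned 1.00 over the arrays, were Plekhb1 (0.10), the chemokine gene Ccl9 (0.12) and Akr1b8 (0.13). Tbx1 spanned 0.99 and so lay just under the span of 1 set for naming, and its nearest genes were looked up after that was seen. They were Vsir (0.06), an immune checkpoint protein, Chp2 (0.08) and the ephrin receptor gene Epha4 (0.08). The measure describes these 6 arrays only, and the other 3 members, which spanned 0.28 to 0.40, were not described this way.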

How the data were processed

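The deposited values are log2 expression per probe set, made by the authors with RMA and Partek 6.6 per the submitters' processing notes, without stated settings, and the genome build behind the probe sets is not given in the sources used here. RMA makes array distributions alike and shrinks differences of dim genes, so a shift shared by most genes cannot be seen. Array medians lay between 7.14 and 7.22, and the number of arrays limits the precision.

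Of 35556 probe sets, 21789 had 1 symbol in the platform annotation and were used, and the highest-mean probe set was kept for each of 19938 genes. The Entrez number matched a RefSeq gene table of GRCm38.p6 for 21698 of the 21789 probe sets with 1 symbol, and 0 symbols changed. Each member had 1 probe set. Each gene was tested two-sided with limma 3.58.1 (R 4.3.3, lmFit and eBayes, no covariates), and Benjamini-Hochberg adjusted p-values over the whole table were read at 0.05. With 3 arrays a side an exact permutation p cannot fall under 0.1, so none was computed. The alternatives were repeated quantile normalization, median-centring, filters at the 25th and 50th percentile, the mean of probe sets, a variance trend, array weights, the replicate block and leaving out each array. The test was tried on simulated data.

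The members and lists were chosen with earlier results of these data known. Named genes are the members, up to 4 of each list with the smallest unadjusted p, and some genes nearest in pattern. The latter are the 3 nearest for members spanning at least 1 log2 unit, without predicted genes, unnamed transcripts and small RNA genes. Further genes, most of which passed without ascending replicate 3, were named after their values were seen. Of the lists, several genes were not analysed here. Tables and plots used Python 3.11.15, pandas 2.3.3 and matplotlib 3.10.9.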

Additional observations from a re-analysis of the deposited data

How the results depend on the processing

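Over the 14 alternatives limma called 0 of all genes except without ascending replicate 3, so leaving out each array gave 0 to 933 genes, 0 to 2 T-box members, 0 to 6 partner factors, 0 to 2 genes activated by Tbx5 or Tbx20, and 0 to 1 for each of the genes repressed by Tbx2 or Tbx3, the genes upstream and the genes linked to Tbx18. The Tbx20 difference ranged from 1.29 to 2.84 and that of Tbx1 from -0.89 to -0.39 on leaving out each array, with the same sign in every alternative run. The lowest Tbx20 value came without ascending replicate 2 and the highest without ascending replicate 3. Tbx5 ranged from -0.18 to 0.32 and turned negative without ascending replicate 1 or 3 or descending replicate 1. Tbx2 ranged from -0.077 to 0.12, and was 0.0034 after median-centring and 0.028 with array weights. On leaving out each array Tbx3 kept its sign between 0.04 and 0.15 and Tbx18 between -0.21 and -0.03, and Tbx3 was 0.17 with array weights. The filter at the 50th percentile of mean level left Tbx3 out, so it has no difference in that fit. The median of the other T-box genes was 0.0073 after repeated quantile normalization and -0.26 above the 50th percentile, where fewer genes are tested, and that of the genes repressed by Tbx2 or Tbx3 was -0.25 above the 50th percentile. With the replicate block Tbx20 differed by 1.86 ± 0.67 (SE) and Tbx1 by -0.56 ± 0.21 (SE), limma adjusted p = 0.602 for each, and the replicate block changed no call. Deviations of same-numbered arrays from their group means correlated at -0.08, -0.05 and 0.02, so the numbers were not treated as pairs. The cause of the separate position of ascending replicate 3 was not tested.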
